A study of Homo sapiens with 2 samples.

Results

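The genes described are 33 protein-coding genes of the signalling route that runs from growth factor ligands through RAS to the MAP kinases and AKT. They were chosen by symbol from the GENCODE annotation of GRCh38, and all 33 were found among 19970 protein-coding genes on chromosomes 1 to 22 and X. The measurement was asymmetric dimethylation of arginine 3 of histone H4 (H4R3me2a) in HCT116, a long-established line of human colorectal carcinoma cells. The cells were cross-linked with formaldehyde and had received no drug. There was 1 library immunoprecipitated with an antibody against H4R3me2a and 1 library of input DNA as its control. Without replicates no value has a replicate check, no p-value was computed, and each interval covers counting error only.

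H4R3me2a is placed mainly by the arginine methyltransferase PRMT1, and the mark is known mostly from active chromatin. In the pathway, ligands of the EGF family activate receptor tyrosine kinases, adaptors such as GRB2 and SHC1 recruit the exchange factors SOS1 and SOS2, and these load RAS proteins with GTP. RAS then activates the RAF, MEK and ERK kinases and phosphatidylinositol 3-kinase (PI3K), which leads to AKT. The dual-specificity phosphatases, Sprouty and SPRED proteins restrain the cascade, and several of them are transcribed in answer to ERK activity, as are ETV4, ETV5 and FOSL1.

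A peak was given to a gene if its summit lay in the gene body or no more than 1 kb from a transcription start site (TSS) annotated for that gene. Each such peak had 1 of 3 places: the gene 5' end (within 1 kb of the outermost annotated start), an internal TSS (within 1 kb of any other start), or the body. Of the 33349 peaks on these chromosomes, 78 fell to the 33 genes, of which 11 lay at 5' ends, 20 at internal TSSs and 47 in gene bodies. A peak was present somewhere in 22 of the 33 genes (66.7%, 95% exact binomial interval 48.2 to 82%), against 47.2% of all protein-coding genes. At the 5' end the count was 10 of 33 (30.3%, 15.6 to 48.7%) against 19.2% of all genes. At internal TSSs it was 8 of 33 (24.2%, 11.1 to 42.3%) against 18.1%, and in the body 14 of 33 (42.4%, 25.5 to 60.8%) against 32.8%. The interval of each of the last 3 shares includes the share of all genes.

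The genes were longer and had more annotated starts than the typical gene. Their median length was 51.8 kb against 27.5 kb for all protein-coding genes, and they had a median of 9 annotated TSSs against 5. In deciles 1 to 3 of gene length, the shortest genes, 6 of 9 pathway genes had a peak against 36.6% of all such genes. In deciles 4 to 7 it was 8 of 9, against 51.3%, and in deciles 8 to 10 it was 8 of 15, against 52.3%. The median gene of the pathway had 1 peak, or 0.294 per 10 kb of gene, where the median of all genes was 0. Each density is all peaks given to a gene, with those up to 1 kb outside it, over the gene's length. Pooled over length, the density was 0.335 peaks per 10 kb against 0.207.

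The peaks were unevenly spread. AKT1 alone held 15 of the 78 (19.2%) on 1.13% of the genes' summed length, and AKT1, MAP2K2, SPRED2, ETV4 and HRAS together held 41 (52.6%) on 10.2% of it. Of the 33 genes, 7 had 5 or more peaks (21.2%, 8.98 to 38.9%), against 8.64% of all genes. No peak was found in EREG, SOS1, PTPN11, NRAS, BRAF, MAP2K1, SPRY2, SPRED1, ETV5, FOSL1 and PIK3R1. The lowest pileup of any peak in the list was 5 fragments, so a gene without a peak is one without a called site at this depth, and absence of the mark was not shown.

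**Figure D1:**
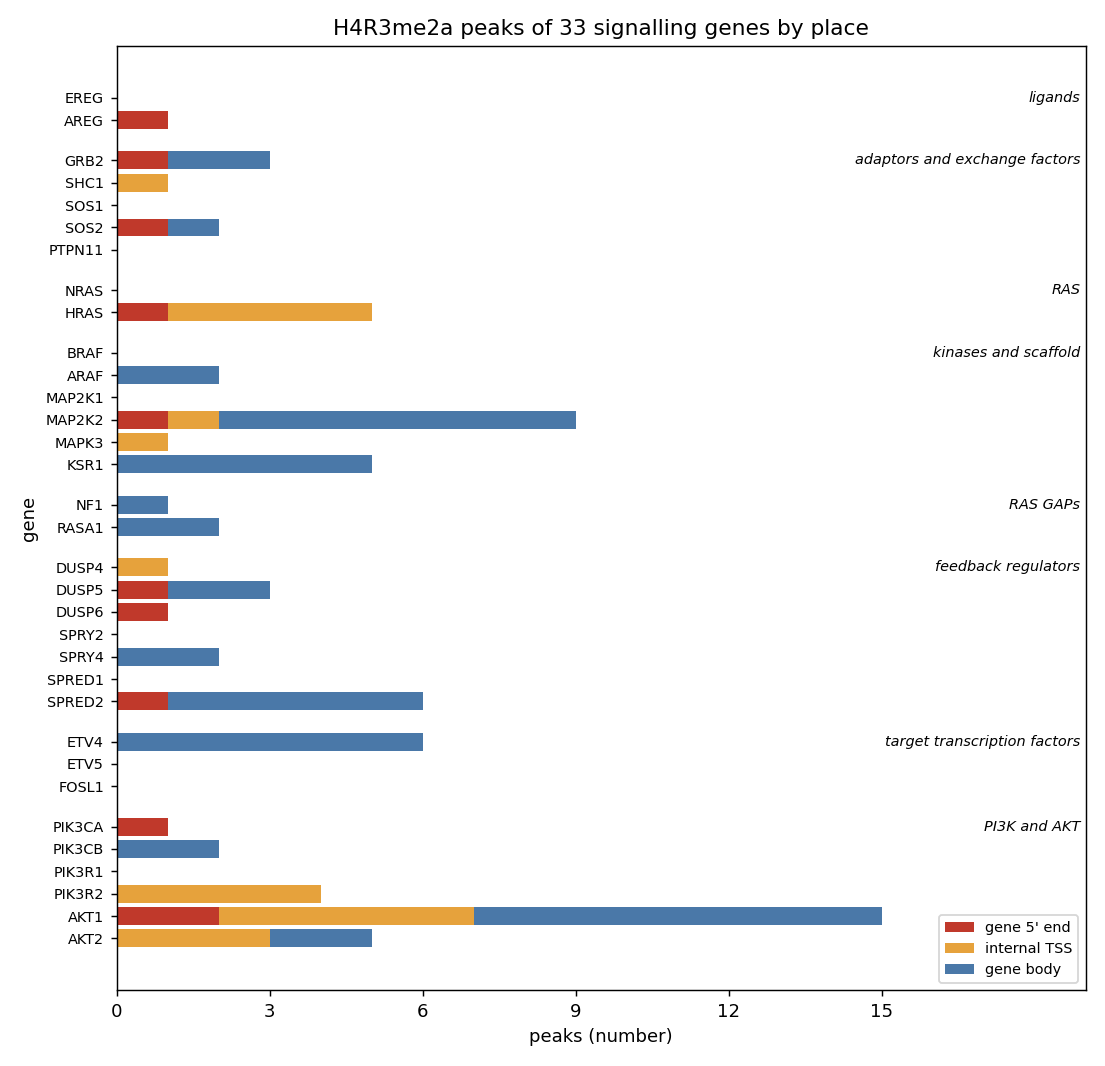
Number of H4R3me2a peaks (horizontal axis) in each of the 33 genes (vertical axis, grouped by role), coloured by place: gene 5' end, internal TSS or gene body. AKT1 with 15 peaks and MAP2K2 with 9 have the longest bars, and 11 genes have none.

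The sequences below are those of the reference genome (GRCh38, strand of the gene) around 5 summits, picked after their values were seen. They are shown because their CpG content ranges from high at PIK3CA to lower at MAP2K2 and DUSP5. All 5 summits lay in intron 1 of the canonical transcript. Capitals mark every CpG dinucleotide. Each window is 300 bases long and centred on the summit, except that of AKT1, cut to 205 bases so that it holds no UTR. The first windows are those of the highest peak of HRAS near an internal TSS (chr11:534760-535059, minus strand) and the 5'-end peak of PIK3CA (chr3:179148642-179148941, plus strand). They are followed by the downstream 5'-end peak of AKT1 (chr14:104795045-104795249, minus strand) and the 5'-end peak of MAP2K2 (chr19:4123309-4123608, minus strand). The last is the highest body peak of DUSP5 (chr10:110499372-110499671, plus strand).
HRAS: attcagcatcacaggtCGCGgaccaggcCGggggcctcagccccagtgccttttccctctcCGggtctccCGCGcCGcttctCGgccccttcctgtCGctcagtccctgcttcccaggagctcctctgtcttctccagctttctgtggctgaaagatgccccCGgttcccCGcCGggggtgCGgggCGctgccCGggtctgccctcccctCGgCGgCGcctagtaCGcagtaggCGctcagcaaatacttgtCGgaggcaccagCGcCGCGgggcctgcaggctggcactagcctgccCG
PIK3CA: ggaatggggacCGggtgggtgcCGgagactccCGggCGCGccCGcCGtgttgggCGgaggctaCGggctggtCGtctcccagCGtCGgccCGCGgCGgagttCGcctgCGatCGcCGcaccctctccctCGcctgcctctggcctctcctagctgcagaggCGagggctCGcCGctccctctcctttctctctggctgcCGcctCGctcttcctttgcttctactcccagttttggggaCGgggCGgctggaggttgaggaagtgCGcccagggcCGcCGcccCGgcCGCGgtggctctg
AKT1: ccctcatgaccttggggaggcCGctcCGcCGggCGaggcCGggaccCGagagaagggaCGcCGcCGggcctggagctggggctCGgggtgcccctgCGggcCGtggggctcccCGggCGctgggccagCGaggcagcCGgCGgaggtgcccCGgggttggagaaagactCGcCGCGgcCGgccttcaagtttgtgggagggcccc
MAP2K2: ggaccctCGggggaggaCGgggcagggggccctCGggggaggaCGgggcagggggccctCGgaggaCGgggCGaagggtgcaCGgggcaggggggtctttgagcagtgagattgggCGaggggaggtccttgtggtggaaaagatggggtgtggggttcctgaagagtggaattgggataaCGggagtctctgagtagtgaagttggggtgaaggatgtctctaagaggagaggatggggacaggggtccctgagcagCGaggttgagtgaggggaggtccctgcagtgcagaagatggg
DUSP5: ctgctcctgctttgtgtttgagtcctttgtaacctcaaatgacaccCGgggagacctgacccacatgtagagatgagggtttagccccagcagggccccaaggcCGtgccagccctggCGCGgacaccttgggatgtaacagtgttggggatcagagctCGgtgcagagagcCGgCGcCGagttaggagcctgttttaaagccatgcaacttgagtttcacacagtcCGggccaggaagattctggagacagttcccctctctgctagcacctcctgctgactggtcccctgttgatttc

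These windows held 33 CpGs at PIK3CA, 25 at HRAS, 22 at AKT1 (in fewer bases), 11 at MAP2K2 and 9 at DUSP5. Over all 78 peaks the CpG content also differed by place. Over 200 bp to each side of the summit, the ratio of CpGs counted to those the base composition predicts had a median of 0.708 at 5' ends, 0.424 at internal TSSs and 0.232 in bodies. Over all protein-coding genes the medians were 0.647, 0.337 and 0.273, so the genes followed the order seen in the whole list. GC content had medians of 66.6% at 5' ends, 64.6% at internal TSSs and 55.4% in bodies, against 65.1%, 61.8% and 58.6% in all genes.

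Of 4 motifs searched on both strands in the 300 bases centred on each summit, the GC box bound by SP factors (GGGCGG) was in 16 of the 78 windows (20.5%), against 25.1% of all peaks. It was in 5 of the 11 windows at 5' ends, where 50.6% of all 5'-end peaks held it, and the PIK3CA window above has 3 matches. The AP-1 motif (TGANTCA), the site of FOS and JUN family factors, was in 3 windows (3.85% against 4.88%). The ETS motif (CCGGAAGT), which fits the family of ETV4 and ETV5, and the cAMP response element (TGACGTCA) were in 0 of 78, against 0.456% and 0.186% of all peaks. None of the 4 motifs contains another.

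All peaks of the pathway rested on few fragments. The pileup at the summit is the number of fragments that overlap it, and the fold is the authors' ratio of that pileup to a local background, with 1 added to both. Over the 78 peaks the pileup ran from 5 to 19 fragments with a median of 9.5, against 10 in the whole list. The recovered background had a median of 1.54 fragments, as in the whole list, and the fold a median of 4.05 (range 2.67 to 6.08) against 4.18. The −log10 of the authors' q-value was 5 or more in 2 of the 78 (2.56%), 1 in DUSP5 and 1 in HRAS, against 3.84% of all peaks. A pileup of 12 fragments has an exact 95% Poisson interval of 6.2 to 21, which covers the pileups of most of the 78. The fold falls as the background rises and does not rank the amount of the mark.

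**Figure D2:**
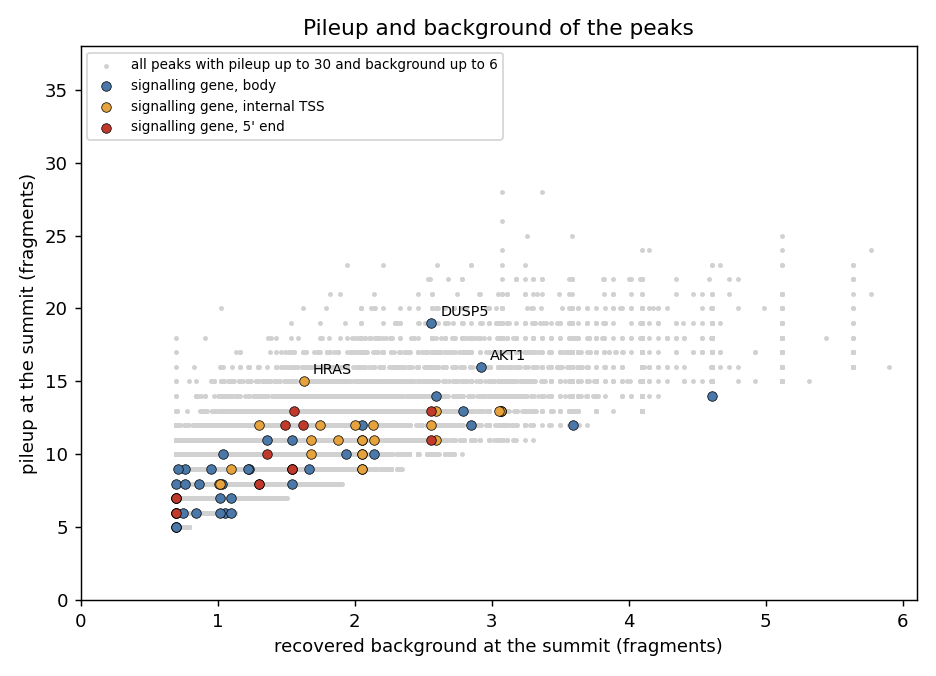
Pileup at the summit (vertical axis, fragments) against the recovered background (horizontal axis, fragments) for all peaks within the axes' range (grey) and for the 78 peaks of the pathway (coloured by place). The highest pathway peaks are those of DUSP5 (19 fragments), AKT1 (16) and HRAS (15).

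Of the ligands, 1 of 2 had a peak, and of the adaptors and exchange factors 3 of 5, against 47.2% of all protein-coding genes. At the 5' end it was 1 of 2 and 2 of 5, against 19.2% of all genes. AREG codes for amphiregulin, an EGF-family ligand, and had 1 peak at its 5' end (chromosome 4, 74445461 to 74445645), with 7 fragments over a background of 0.697, a fold of 4.71 and its summit 419 bp downstream of the start in intron 1. The background of 0.697 fragments is the lowest in the list, and 12 of the 78 peaks had it. EREG, the nearby gene for the related ligand epiregulin, had none, and the nearest summit lay 51.4 kb from the gene. Among adaptors, GRB2, which links receptors to SOS, had 3 peaks, with 9, 9 and 10 fragments. The peak at its 5' end (chromosome 17, 75405050 to 75405243) had a fold of 3.94 and its summit 508 bp downstream. The peak of highest −log10 q in GRB2 (3.74) lay 39 kb into the gene, in intron 2, with a fold of 5.4.

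SHC1, an adaptor that binds phosphorylated receptors, had 1 peak (chromosome 1, 154970260 to 154970438, 8 fragments, fold 4.48). Its summit lay 4002 bp from the outermost start but 354 bp downstream of the start of the canonical transcript, in coding sequence of exon 1. SOS2 had a peak of 6 fragments at its start (chromosome 14, 50231184 to 50231326, fold 4.12, in coding sequence of exon 1) and 1 of 5 fragments 82.5 kb downstream. SOS1, the paralogous exchange factor, and PTPN11, which codes for the phosphatase SHP2, had none. The summits nearest to these genes lay 53 kb from SOS1 and 5.84 kb from PTPN11.

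The RAS genes differed in their peaks. HRAS had 5 in and around a gene of 5.08 kb, 9.84 per 10 kb, which stood at percentile 99.4 of all protein-coding genes. NRAS, of 12.3 kb, had none, and the nearest summit lay 34.6 kb away. The pileups of HRAS, in the direction of transcription, were 13, 15, 13, 10 and 11 fragments. The upstream peak (chromosome 11, 537801 to 538190, fold 5.48) lay 697 bp before the outermost start, inside the overlapping gene LRRC56. It was within 1 kb of a TSS of that gene, so it cannot be given to HRAS alone. The density of 9.84 per 10 kb counts this peak, although it lies outside HRAS. The highest −log10 q of HRAS, 5.5, belonged to a peak with a fold of 6.08 (chromosome 11, 534801 to 535121), 667 bp downstream of the canonical start and in intron 1. The other 3 lay in introns 1, 3 and 4, each near an internal TSS. HRAS had the highest GC content of the 33 genes (69%), NRAS 38.7%, and the 500 kb on either side held 149 and 6.01 peaks per Mb.

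Of the kinases and their scaffold, 4 of 6 had peaks, against 47.2% of all protein-coding genes. Each role holds few genes, and differences between roles were not tested. BRAF, a RAF kinase, had none in 206 kb. ARAF, its relative on the X chromosome, had 2 peaks close together in coding sequence of exons 4 and 6, with 6 and 8 fragments, both over the lowest background. The folds were 4.12 and 5.3 and the peak of higher −log10 q (3.32) lay at 47565235 to 47565384. MAP2K1, the gene for MEK1, had none in 105 kb, while MAP2K2, the gene for MEK2, had 9 in 33.8 kb. The pileups of MAP2K2 ran from 6 to 14 fragments with a median of 11. Its 5'-end peak (chromosome 19, 4123363 to 4123550) had 12 fragments, a fold of 5.22 and its summit 664 bp downstream, and 5 of the 9 summits lay in intron 1. MAP2K2 also held the lowest fold among the 78, 2.67, where 14 fragments stood over a background of 4.61.

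MAPK3, which codes for ERK1, had 1 peak (chromosome 16, 30117669 to 30117912), with 9 fragments and a fold of 3.28. It lay 5659 bp into the gene, in intron 4 and 561 bp before an internal TSS. KSR1, a scaffold that brings RAF, MEK and ERK together, had 5 body peaks in 170 kb and none near a TSS, with 6 to 9 fragments and folds of 3.46 to 4.51. The peak of highest −log10 q in KSR1 (2.67) lay in the UTR of exon 21, where another protein-coding locus without a symbol overlaps it. The 2 RAS GTPase-activating proteins, which switch RAS off, carried body peaks only. NF1 had 1 peak in 287 kb (7 fragments, fold 3.95, intron 1) and RASA1 had 2 in 124 kb (6 and 7 fragments, folds 4.12 and 4.71, intron 1).

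Feedback regulators had peaks in 5 of 7 genes, against 47.2% of all protein-coding genes. A 5'-end peak was in 3 of the 7, against 19.2% of all genes. DUSP5, a phosphatase that acts on ERK in the nucleus, had 3 peaks within 1 kb of sequence in intron 1, at 668, 1071 and 1614 bp downstream of the start. Their pileups were 13, 10 and 19 fragments over backgrounds of 2.56, 1.94 and 2.56. The last (chromosome 10, 110499403 to 110499689, fold 5.62) had the highest pileup (exact interval 11.4 to 29.7) and the highest −log10 q (5.92) of the 78. It was classed as a body peak, since its summit lay past the 1 kb limit. DUSP6, an ERK phosphatase of the cytoplasm, had 1 peak at its 5' end, in coding sequence of exon 1 (chromosome 12, 89351761 to 89351898, 8 fragments, fold 3.92, 679 bp downstream). DUSP4 had 1 near an internal TSS, 2294 bp into the gene (8 fragments, fold 4.46).

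SPRED2, an inhibitor of RAF activation, had 6 peaks over 122 kb, with pileups of 11 at the 5' end (chromosome 2, 65431550 to 65431864, fold 3.37) and then 6, 8, 7, 9 and 9 fragments along the body. The 5'-end summit lay 946 bp downstream, the farthest of the 11. The peak of highest −log10 q (3.84, fold 5.67) lay 109 kb into the gene in intron 4. SPRED1 had none in 104 kb. SPRY4, a Sprouty inhibitor, had 2 peaks in exon 2, 1 in coding sequence (10 fragments, fold 3.51) and 1 in the UTR (8 fragments, fold 3.55). SPRY2 had none, and the nearest summit to it lay 3010 kb away, in a stretch of chromosome 13 with no peak in the 500 kb on either side.

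Of the ERK-responsive transcription factors, ETV4 had 6 peaks and ETV5 and FOSL1 had none. The 6 peaks of ETV4 had 5 to 11 fragments and folds of 3.33 to 5.12, and all were in the body. The annotated 5' end of ETV4 lies 33.3 kb before its canonical start, so 2 of the 6 lay upstream of the canonical transcript. All 6 summits also lay inside the overlapping gene DHX8, a helicase gene, 1 of them within 1 kb of a TSS of DHX8, and the data carry no strand that could tell these genes apart. The peak of highest −log10 q in ETV4 (3.3) lay in intron 4, at chromosome 17, 43539600 to 43539742. FOSL1, the gene for the AP-1 subunit FRA1, had a GC content of 55.7% and 140 peaks per Mb in its surroundings, and the nearest summit lay 11 kb from it.

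PI3K and AKT genes held 27 of the 78 peaks, the most of any role, and 15 of the 27 were in AKT1. A peak was present in 5 of these 6 genes, against 47.2% of all protein-coding genes. PIK3CA, the gene for the catalytic subunit p110 alpha, had 1 peak, at its 5' end (chromosome 3, 179148758 to 179148943), with 7 fragments over the lowest background and a fold of 4.71. Its summit lay 434 bp downstream of the canonical start in intron 1. PIK3CB, for p110 beta, had 2 peaks in the body, both in intron 1, with 9 and 5 fragments and folds of 5.84 and 3.53. PIK3R1, the gene for the main regulatory subunit p85 alpha, had no peak in 86.1 kb. PIK3R2, for p85 beta, had 4 in 17.4 kb, all near internal TSSs, with 12, 9, 12 and 11 fragments and folds of 5.66, 4.76, 4.73 and 4.47. The peak with the fold of 5.66 was the widest of the 78, at 702 bp (chromosome 19, 18161634 to 18162335). An overlapping protein-coding locus without a symbol covered all 4.

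AKT1 had 15 peaks in and around 26.4 kb, 5.68 per 10 kb, at percentile 97.7 of all genes in density and 99.3 in number. Of these, 2 lay at the 5' end, 5 at internal TSSs and 8 in the body. Pileups ran from 9 to 16 fragments with a median of 12, and backgrounds from 1.36 to 3.59. The 5'-end peaks lay 434 bp upstream (chromosome 14, 104796135 to 104796362, 10 fragments, fold 4.66) and 652 bp downstream (104794995 to 104795229, 12 fragments, fold 4.96). The peak of highest −log10 q (3.74) was in intron 4 at 104779699 to 104779967, with 16 fragments. The median distance between neighbouring summits was 0.936 kb and the largest 4.79 kb, so the peaks ran along the whole gene. AKT2 had 5 peaks in 55.2 kb (10, 11, 11, 13 and 13 fragments) and none at its 5' end. Of the 5, 2 lay 5.1 and 10.1 kb into the gene and 3 near its end, with none in the 39.3 kb between. The peak of highest −log10 q in AKT2 (2.68) lay in coding sequence of exon 12 (chromosome 19, 40235315 to 40235556, 13 fragments, fold 3.9).

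**Figure D3:**
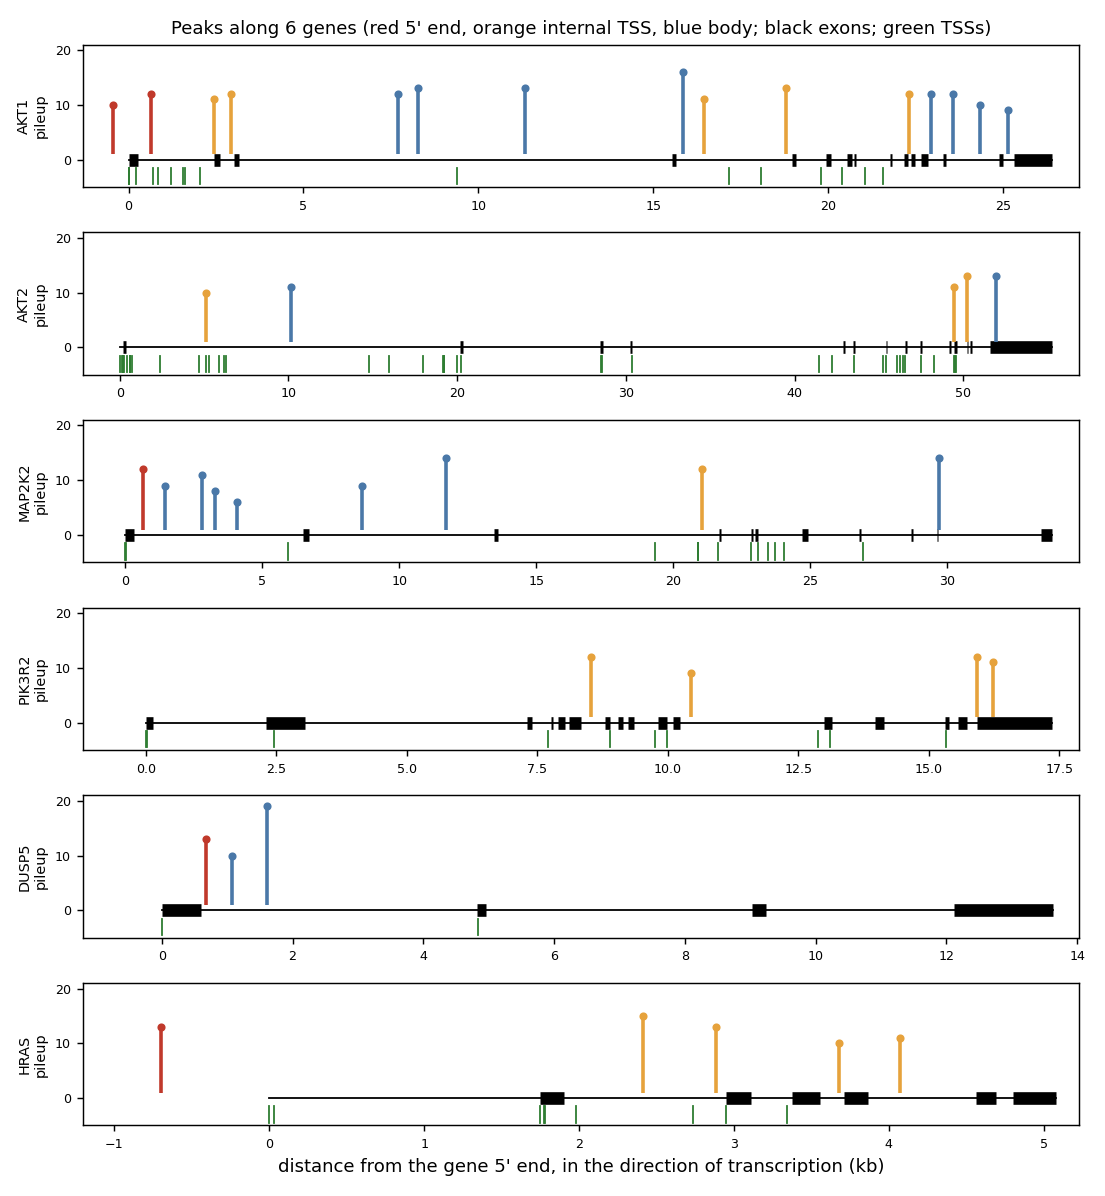
Peaks along 6 genes, with the pileup in fragments (vertical axis) against the distance of the summit from the gene 5' end in kb (horizontal axis, in the direction of transcription). Red, orange and blue stems are peaks at the 5' end, at internal TSSs and in the body, black boxes are exons of the canonical transcript and green ticks are annotated TSSs. In AKT1 the 15 peaks run along the gene, and in DUSP5 the 3 peaks lie within intron 1 close to the start.

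The side of the start on which a summit lay depended on which start was taken. Of the 11 peaks at 5' ends, 9 (81.8%) had their summit downstream of the canonical start and 2 upstream, the latter at HRAS and AKT1, while 65.4% of the 5'-end summits of all genes were downstream. Against the nearest annotated TSS, 5 of the 11 (45.5%) were downstream and 6 upstream (SOS2, HRAS, DUSP6, PIK3CA and both of AKT1), with 65% downstream in all genes. By the canonical transcript, 7 of the 11 lay in intron 1, 2 in exon 1 (SOS2 and DUSP6) and 2 outside it. Their distances from the outermost start were 310 to 946 bp with a median of 664 bp. With the canonical start taken as the 5' end, an alternative chosen after seeing the data, 11 genes had a 5'-end peak, with SHC1 added, against 21.4% of all genes. With a window of 500 bp only 3 did (AREG, SOS2 and AKT1), against 9.83% of all genes. With starts of protein-coding transcripts alone, 5 of the 33 genes had an internal-TSS peak, against 11.9% of all genes.

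Along the canonical transcripts, the density was 0.8 peaks per 10 kb of exon (12 peaks), 0.414 in intron 1 (32 peaks) and 0.226 in later introns (30 peaks). All protein-coding genes gave 0.747, 0.266 and 0.141, the same order. Within the pathway, MAP2K2 and SPRED2 had 5 peaks each in intron 1 and KSR1 had 4.

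Peak density went with the base composition of the gene. Across the 33 genes Spearman's rho between the GC content of the gene and the peaks per 10 kb was 0.657, and across all 19970 genes it was 0.51. These points come from the same library, and a density of 0 is shared by the 11 genes without a peak, so both values are descriptions. In deciles 1 to 3 of GC content, the GC-poorest genes, 6 of 12 pathway genes had a peak, with a mean of 0.75 per gene, against 26.5% and 0.363 for all genes there. In deciles 4 to 7 it was 6 of 10, with a mean of 2.4, against 45.7% and 1.09. In deciles 8 to 10 it was 10 of 11, with a mean of 4.09, against 69.9% and 2.93, and FOSL1 was the gene without a peak. An internal-TSS peak was in 8 of these 11 genes, against 36.6% of all genes in deciles 8 to 10. In deciles 1 to 3 it was in 0 of 12, against 5.31%, and in deciles 4 to 7 in 0 of 10, against 13.9%. The density of peaks in the 500 kb on either side also went with that in the gene (rho 0.459 over the 33 genes, 0.567 over all). Between the length of the gene and its peaks per 10 kb, rho was -0.424 over the 33 genes and -0.0585 over all.

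**Figure D4:**
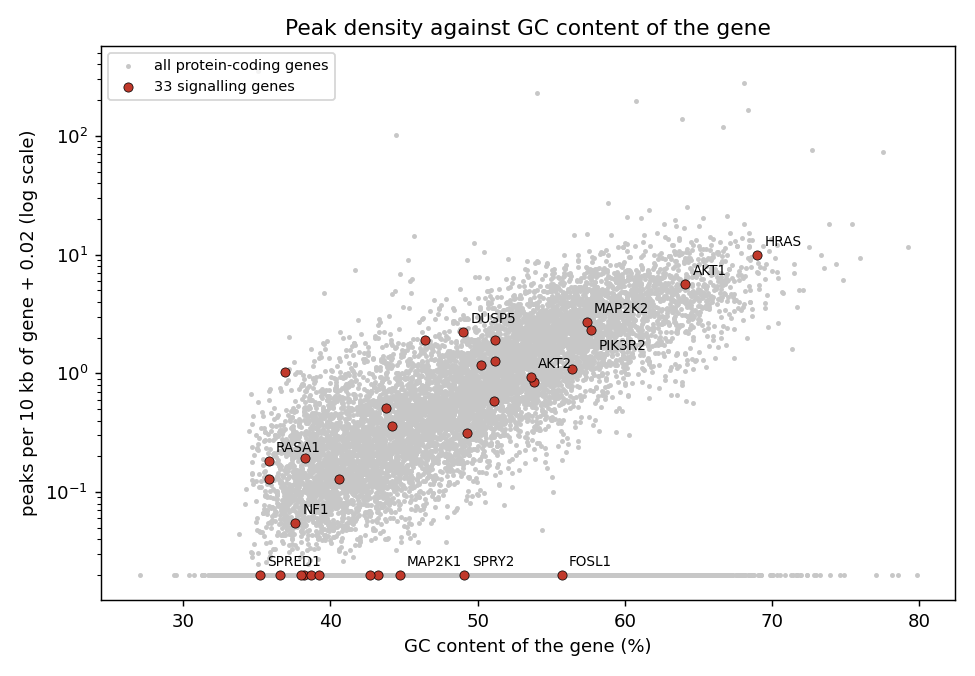
Peaks per 10 kb of gene, with 0.02 added (vertical axis, log scale), against the GC content of the gene in percent (horizontal axis), for the 33 genes (red) and all protein-coding genes (grey). HRAS and AKT1 lie at the upper right, and the 11 genes without a peak lie on the lowest line. The density of a gene with 1 peak is set by its length.

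Related genes with the same role are set side by side here as a description, since they were put together after the counts were known and are among the same 33 genes. The peaks per 10 kb were 0 in NRAS and 9.84 in HRAS, 0 in MAP2K1 (GC content 44.7%) and 2.66 in MAP2K2 (57.4%), and 0 in PIK3R1 (39.2%) and 2.3 in PIK3R2 (57.7%). AKT1 (64.1%) had 5.68 and AKT2 (53.6%) 0.905. Over 12 such pairs, the gene of higher GC content had the higher density in 11. NF1 and RASA1 were the exception. NF1 had 0.0348 at a GC content of 37.6% and RASA1 0.161 at 35.8%. The phosphatases were not among these pairs. Of them, DUSP4 (51.1%) had the highest GC content and the lowest density, 0.568, against 2.2 in DUSP5 (49%) and 1.9 in DUSP6 (46.4%). The GC contents of SOS1 (38.2%) and SOS2 (38.3%) and of EREG (36.6%) and AREG (36.9%) were close, as were the densities of PIK3CA (0.109) and PIK3CB (0.11). Except for SPRY4, SPRED2 and PIK3CB, the gene of higher density in each of the 12 pairs was also the shorter. The parts of base composition and of gene length in the densities were not tested.

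The other genes of the pathway, 89 symbols in a list of receptors, adaptors, kinases, regulators and targets, were counted in the same way. Of these, 67 (75.3%) had a peak, 28 (31.5%) at the 5' end, 33 (37.1%) at an internal TSS and 50 (56.2%) in the body, with a median of 0.25 peaks per 10 kb. Across all protein-coding genes 47.2% had a peak, 19.2% at the 5' end, 18.1% at an internal TSS and 32.8% in the body. By role, a peak was present in 8 of 9 receptors, 3 of 3 ligands, 6 of 10 adaptors and exchange factors, 6 of 8 RAS-like genes and 12 of 13 kinases and scaffolds. It was present in 7 of 12 feedback regulators, 6 of 6 GTPase-activating proteins, 8 of 13 targets and 11 of 15 PI3K and AKT genes. The roles hold few genes of unlike length, and differences between them were not tested. The 8 genes with the 5'-end peak of highest −log10 q were RPS6KA4, an MSK kinase downstream of ERK (fold 7.01, 14 fragments), FGFR2, a growth factor receptor (6.74, 13 fragments), MAP2K5 (5.89), PIK3C2B (5.65), FOS (5.13), SHOC2 (5.25), INSR, the insulin receptor (4.91), and JUN (4.26). The folds are given in the order of −log10 q, from 6.28 at RPS6KA4 to 2.93 at JUN. The −log10 q of 6.28 at RPS6KA4 is higher than that of any of the 11 5'-end peaks of the 33 genes, whose highest is 4.4 at HRAS.

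The series holds no expression data, so the cell type was looked at only through peaks. Of 9 markers of colorectal epithelium, 6 had a peak, with KRT8 highest at 7, and KRT18, KRT20 and CDX2 had none. Fibroblast markers had a peak in 2 of 5 genes, with 7 in COL1A1, and blood markers in 2 of 5, with 3 in LCK. Peaks were thus present in all 3 marker lists, and 47.2% of all protein-coding genes had one.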

How the data were processed

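Peaks of 1 H4R3me2a library against 1 input library were taken from the authors' deposited table. The submitters' processing notes name Bowtie2, MACS2, deepTools and GRCh38; versions, parameters and read numbers were not given in the sources used here, so depth is described by the pileup. Per the file headers, the deposited values are the pileup (a signal in fragments), the fold (a ratio to local background), and, on a −log10 scale, p-values and q-values. These are the authors' own values for each peak and only describe it. The background was recovered as (pileup + 1) / fold − 1. Of 33353 peaks, 33349 on chromosomes 1 to 22 and X were used, and none ended beyond its GRCh38 chromosome.

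Genes and TSSs came from GENCODE release 44, with pysam 0.24.0, pandas 2.3.3 and scipy 1.17.1. Placing of peaks was tested on simulated summits. Poisson and binomial intervals are exact at 95%. All 33 genes are named. Peaks at 5' ends are described one by one, and of other genes the peak of highest −log10 q. Of the wider list, at most 8 genes are named by 5'-end −log10 q. A rule took 10 sequence windows (the peak of highest −log10 q of each role, then 5' ends), of which 5, picked after their values were seen, are printed; some others are not reported here. Members and lists were chosen with earlier results of these data known, and the gene pairs, repeated 32-mers, transcript parts, sides of the start and GC content of genes after seeing these data. Alternatives were stricter peaks, other windows, overlap of peaks, protein-coding starts, merging of peaks and canonical starts.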

Additional observations from a re-analysis of the deposited data

How the results depend on the processing

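Each count was recomputed under 7 alternatives, and the counts at 5' ends and internal TSSs also with canonical starts (chosen after seeing the data), in all 37 recomputed values. Of these, 28 stayed within 1.5 times the reported count. Among the 28, merging peaks under 1 kb apart left 59 of the 78 peaks, with 22 genes still having a peak. The peak numbers and densities of single genes count such close neighbours separately. With peaks of −log10 q of 5 or more, genes with a peak fell from 22 to 2 (HRAS and DUSP5), against 5.25% of all genes. Under the same limit 5'-end genes fell from 10 to 0 (1.59% of all genes), internal-TSS genes from 8 to 1 (1.55%), body genes from 14 to 1 (2.5%), and peaks from 78 to 2. With a fold of 4 or more, 5'-end genes were 6 (13.9%) and peaks 40. A window of 500 bp left 3 genes at the 5' end (9.83%), and starts of protein-coding transcripts left 5 at internal TSSs (11.9%). Fewer peaks or starts enter each of these counts by construction. No paired analysis was possible because each group has 1 library. Pileups of 5 to 19 fragments limit what can be called, and a gene without a peak may carry the mark below that level.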

Other observations

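Some of the peaks held repeated sequence. The 200 bp centred on each summit was cut into all its 32-mers, and exact copies were counted in the genome on both strands. In 64 of the 78 peaks every 32-mer occurred once. All 6 body peaks of the genes in GC deciles 1 to 3 (NF1, RASA1, SOS2 and PIK3CB) held 32-mers with more than 1 copy, against 6 of the other 41 body peaks and 2 of the 31 peaks at a TSS. In these 6 the share of repeated 32-mers was 60.9% at NF1, 61.5% and 37.9% at RASA1, 23.7% at SOS2, and 7.69% and 35.5% at PIK3CB, so 4 of the 6 were mostly unique. Among the other body peaks the share was highest at 1 peak of KSR1 (74.6%). Copies were counted at the 78 peaks only, so no share over all peaks or all GC-poor genes stands beside these counts. How reads with several matches were handled is not known here, and the part of repeats in these peaks was not tested.

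Outside the 33 genes, RASA3 and DAB2IP, which code for GTPase-activating proteins of RAS or related GTPases, had 19 peaks each, 16 of them in the body. These counts exceed that of AKT1, but the genes are longer (155 and 218 kb, against 26.4 kb). Their densities, 1.23 and 0.87 per 10 kb, were lower than the 5.68 of AKT1. Both were picked out after their values were seen. DUSP2, a nuclear phosphatase of ERK, had 3 peaks in a short gene, 13.2 per 10 kb (percentile 99.8), and FOS had 3, or 8.81 per 10 kb. These were also picked after their values were seen.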
